A study of Mus musculus with 10 samples.

Results

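Interferon-stimulated genes are the genes a cell switches on when interferon reaches its surface receptor. The 44 genes described here are those of a list of 45 symbols that the deposited table of 19414 genes holds under the same symbol. The remaining symbol, Ddx58, is an older name of Rigi, which the table does hold; its values are given beside the other RNA sensors, but it is not counted among the 44. Messenger RNA was measured by bulk RNA sequencing in whole liver of 10 female mice of the HET3 stock, in which crosses between inbred strains keep each animal genetically distinct. 5 mice were fed a standard diet and 5 a diet named the Longevity diet, for 5 months in both groups. An age of 25 months is given for all of them, which may refer to when feeding began or to when it ended. The 10 library titles carry 10 different mouse numbers (SD_403 for standard diet, LD_405 for Longevity diet, and so on), so the replicates are separate mice. The spread within a diet therefore also holds inherited differences. No cage, batch or collection time is given for them.

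Interferons are secreted when infection or stray nucleic acid is sensed. Type I and type III interferons activate JAK1 and TYK2, kinases that phosphorylate STAT proteins. Together with IRF9 these form a complex that binds the interferon-stimulated response element (ISRE) in promoters. Type II interferon, made by T and NK cells, has its own receptor and acts through the gamma-activated site (GAS). In liver, hepatocytes, Kupffer cells (the resident macrophages) and sinusoidal endothelial cells all carry interferon receptors. The induced genes sense viral RNA, block its translation, cut it, trap virions or attack the vacuoles of intracellular parasites.

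The cores of these elements were searched on both strands of RefSeq promoter windows, from 250 bases before to 50 bases after the transcription start on GRCm38.p6. The ISRE core was taken as GAAA, any 2 bases and GAAA again, and the GAS core as TTCNNNGAA, which is its own reverse complement. Windows were found for 32 of the 44 genes. An ISRE core was present in 19 of these 32 genes (59.4%), beside 482 of all 12520 genes with windows (3.85%). A GAS core was present in 9 of the 32 (28.1%), beside 1067 of 12520 (8.52%). Both cores occurred in 6 genes, and 10 had neither, among them Irf7, Oasl1 and Samd9l. A match describes letters in a window and does not show that a factor binds there. A missing match does not show that no such element is present, and the Samd9l window holds GAAA repeated at another spacing.

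The following stretches show the kinds of promoter that return in the results, each written 5′ to 3′ on the gene's own strand with every complete match inside it in capitals. Igtp and Irgm2, neighbouring GTPase genes, carry a GAS followed by an ISRE in stretches of 41 bases that differ at 1 position. Bst2 has the cores overlapping. Ifit3 and its near-copy Ifit3b are identical over 50 bases around an ISRE core. The Ifit1 stretch holds 2 ISRE cores, that of Isg15 a run of 3 overlapping ones, and that of Irf1 a GAS core.
Igtp, chr11:58199501-58199541, plus strand: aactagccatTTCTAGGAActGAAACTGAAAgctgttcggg
Irgm2, chr11:58214892-58214932, plus strand: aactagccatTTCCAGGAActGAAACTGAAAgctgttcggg
Bst2, chr8:71537577-71537618, minus strand: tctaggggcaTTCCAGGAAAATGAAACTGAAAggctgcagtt
Ifit3, chr19:34583353-34583402, plus strand: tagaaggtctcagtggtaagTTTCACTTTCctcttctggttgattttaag
Ifit1, chr19:34640784-34640833, plus strand: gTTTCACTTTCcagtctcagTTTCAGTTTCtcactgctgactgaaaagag
Isg15, chr4:156200855-156200904, minus strand: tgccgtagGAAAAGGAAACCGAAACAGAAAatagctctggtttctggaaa
Irf1, chr11:53769904-53769952, plus strand: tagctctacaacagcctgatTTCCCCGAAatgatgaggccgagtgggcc

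Values are counts per 1000000 reads on the listed genes (CPM). Each mean is given ± the standard deviation over 5 mice per diet, and each log2 difference is Longevity diet minus standard diet on the log2(CPM + 0.1) scale, which understates the change of low genes. Estimated depth was 36.0 to 45.7 M reads (M, 1000000) per library on the standard diet and 24.7 to 39.1 M on the Longevity diet (two-sided exact permutation p = 0.0159, n = 5 each, smallest possible 0.00794). None of the 440 values of the 44 genes was 0 or below the level of 3 reads in its library; the lowest was Oas1g in LD_513, at 0.170 CPM. Of the markers of other liver cell types, 12 of 13 for Kupffer cells and macrophages, 8 of 8 for sinusoidal endothelium, 6 of 6 for stellate cells, 7 of 7 for B and plasma cells (median -1.28) and 5 of 5 tested for neutrophils and monocytes (median -1.49) had negative log2 differences. Of those tested for T and NK cells, 7 of 9 were negative (median -0.36). The counts were 2 of 2 for conventional dendritic cells, 1 of 2 for plasmacytoid dendritic cells and 2 of 4 for cholangiocytes (median 0.01). Among all genes tested, 60.4% were negative. The stellate marker Pdgfrb and the neutrophil marker S100a8 fell (log2 -1.36 and -3.79, adjusted p = 0.0290 and 0.0456); Pdgfrb lost its call without SD_403, SD_500, SD_501, LD_406 or LD_515, and S100a8 without any single mouse other than SD_502 (adjusted p up to 0.0868 and 0.126). Summed endothelial markers ran from 235 to 327 CPM on the standard diet and from 98.8 to 206 on the Longevity diet, without overlap, and summed hepatocyte markers from 91937 to 137019 and from 137385 to 192072, although 3 of those 5 markers had negative log2 differences and 0 were called. Kupffer cell and macrophage markers overlapped between the diets, at 564 to 1148 and 314 to 1013 CPM. CPM are shares of a library. In whole tissue, fewer cells of a type, less RNA per cell and a larger share of RNA from other cells cannot be told apart.

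None of the 44 genes rose or fell on the Longevity diet by limma (Benjamini-Hochberg adjusted p under 0.05), with adjusted p between 0.0910 and 0.999. Of all 13157 genes tested, 0.661% were called higher and 1.23% lower, 1.89% in all. At an unadjusted p under 0.05, 1 of the 44 stood higher (all genes 5.92%) and 7 stood lower (all genes 11.6%), a total of 8 or 18.2% beside 17.5% of all genes. The groups of 5 mice overlapped for each of the 44, while 2.01% of all genes had Longevity diet mice all above and 3.49% all below the standard diet mice, 5.5% in all. In direction, 36 of the 44 log2 differences were below 0 (all genes 60.4%), and their median was -0.51, with quartiles of -0.83 and -0.04, beside -0.11 for all genes. The 95% confidence intervals of 26 genes still included a 2-fold fall and those of 6 a 2-fold rise, so a missing call does not show equal levels.

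The mice compared and the settings of the fit moved these counts. Without LD_442, 21 of the 44 genes had an unadjusted p under 0.05 (47.7%, beside 19.6% of all genes), 5 had all remaining Longevity diet mice below the standard diet mice (11.4%, beside 5.63%), and 1, Samd9l, fell (all genes 1.29%). The groups of 1 gene no longer overlapped without SD_500 or LD_405 (Oasl1; all genes 4.2% and 4.65%) or LD_513 (Ifih1; all genes 4.95%). The count of 8 at an unadjusted p under 0.05 became 12 without SD_646 (all genes 16.1%) and 11 without SD_502 (all genes 17.0%). It became 5 without LD_515 (all genes 15%), 4 without SD_403 (14.2%) or without SD_501 (15.7%), and 3 without LD_406 (13.1%). With the leading digit of the mouse number in the model it was 16 (36.4%, beside 14.7% of all genes). That digit was entered as 4 (SD_403, LD_405, LD_406 and LD_442) or not 4, and so was unbalanced between the diets. With no filter on low values the count was 12 (27.3%, beside 14.6%). It was 5 (11.4%) under median-of-ratios scaling and under quantile normalization, beside 18.6% and 17.3%.

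**Figure D1:**
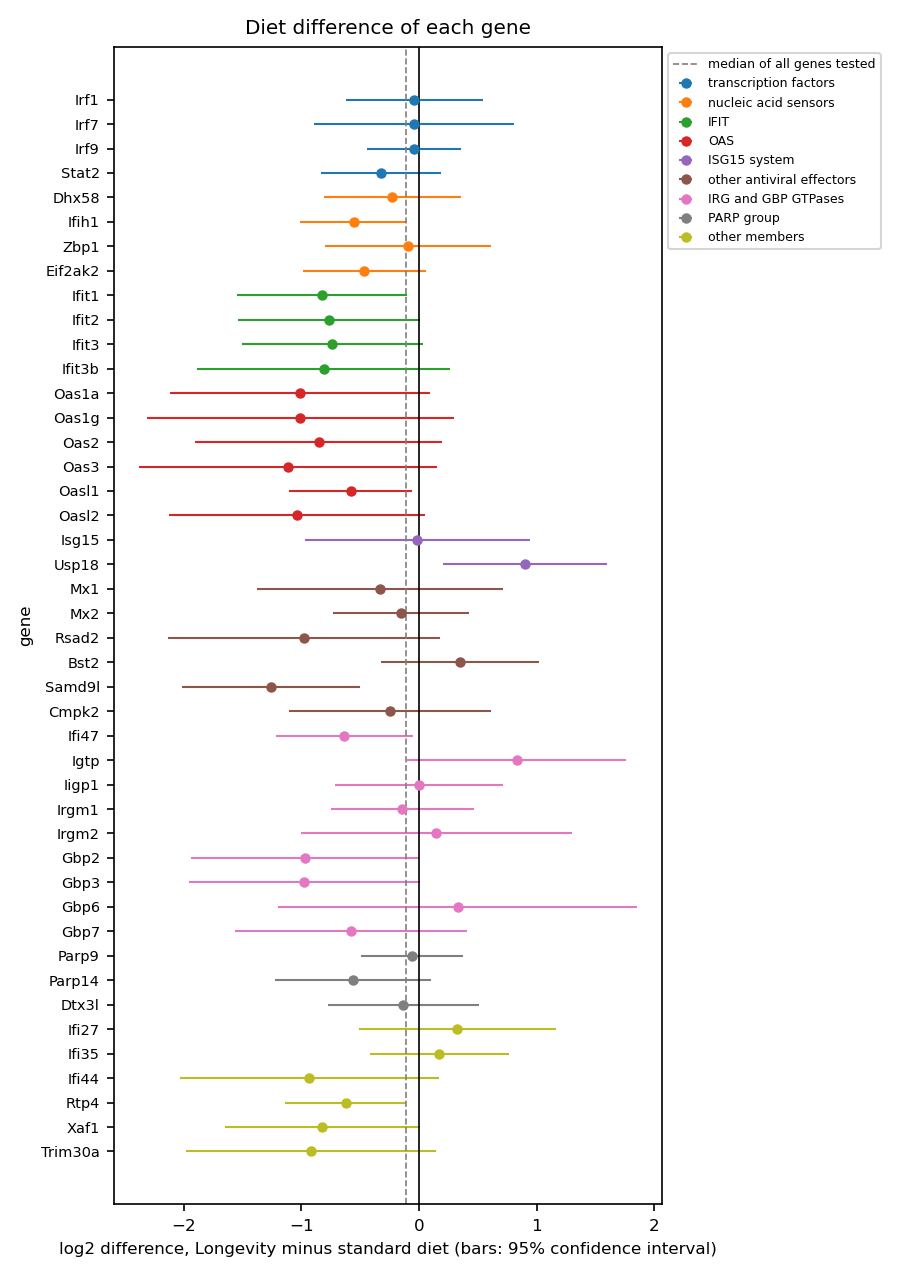
Log2 difference (Longevity diet minus standard diet, log2(CPM + 0.1) scale) of the 44 interferon-stimulated genes, grouped by role, with 95% confidence intervals from limma and a dashed line at the median of all genes tested (-0.11). Points run from -1.26 (Samd9l) to 0.90 (Usp18), and 8 intervals leave out 0.

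The transcription factors that drive the response did not differ detectably between the diets. All 4 log2 differences were below 0, that of Stat2 at -0.32 and those of Irf1, Irf7 and Irf9 at -0.04, with a median of -0.04. The median was 0.06 under median-of-ratios scaling and between -0.18 and 0.08 when single mice were left out. Irf7, which amplifies type I interferon production, was the most abundant of them in CPM. It measured 62.3, 33.3, 73.2, 19.1 and 57.3 CPM in SD_403, SD_500, SD_501, SD_502 and SD_646, and 72.9, 43.7, 65.9, 28.7 and 23.9 CPM in LD_405, LD_406, LD_442, LD_513 and LD_515; the same order of mice is used below. SD_502 and LD_515 were low, SD_501 and LD_405 high, and the groups overlapped throughout (49.1 ± 22.2 against 47.0 ± 21.9 CPM, log2 difference -0.04, 95% interval -0.89 to 0.81, adjusted p = 0.968).

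Irf9, the DNA-binding part of the complex described above, was among the steadiest genes on the standard diet, at 28.2 to 33.5 CPM. It ran from 22.7 to 39.7 CPM on the Longevity diet, with LD_442 highest, and the log2 difference was -0.04 (adjusted p = 0.928). Irf1, which has the GAS core shown above and is induced early by type II interferon, lay between 25.2 and 33.3 CPM on the standard diet. On the Longevity diet 3 mice lay below that range, at 17.7 to 22.5 CPM, LD_442 within it at 33.1, and LD_513 above it at 53.2 (log2 difference -0.04, adjusted p = 0.954). Stat2 measured 47.1 ± 12.4 and 37.8 ± 10.9 CPM (log2 difference -0.32, adjusted p = 0.504).

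The sensors of viral nucleic acid had a median log2 difference of -0.35, with all 4 below 0. Ifih1 encodes MDA5, which detects long double-stranded RNA, and lies on chromosome 2 from 62426142 to 62476599 (mm39, minus strand). It stood at 23.3, 19.2, 33.1, 26.8 and 18.8 CPM on the standard diet and at 12.4, 16.8, 18.3, 19.4 and 14.5 CPM on the Longevity diet. The groups touched only through LD_513, which lay above SD_500 and SD_646; the other 4 Longevity diet mice were below every standard diet mouse (24.2 ± 5.96 against 16.3 ± 2.85 CPM, log2 difference -0.56 with a standard error of 0.21, adjusted p = 0.187). Under median-of-ratios scaling and under quantile normalization, the Ifih1 groups no longer overlapped (2.71% of all genes lay lower without overlap under each), and no call was made.

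The remaining sensors were nearer to 0. Eif2ak2 encodes PKR, which halts translation on binding double-stranded RNA, and had a log2 difference of -0.47 (adjusted p = 0.346). Dhx58 encodes LGP2, a regulator of MDA5, and differed by -0.23 (adjusted p = 0.696). Zbp1, a sensor of left-handed double helices that can start cell death, differed by -0.09 (adjusted p = 0.909), with LD_442 highest of all mice at 24.9 CPM and LD_515 lowest at 7.08. Rigi, the sensor of RNA ends listed as Ddx58, measured 19.9 ± 3.47 and 16.8 ± 6.63 CPM (log2 difference -0.32, adjusted p = 0.571).

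The IFIT genes, whose proteins bind foreign RNA ends and block their translation, lie together on chromosome 19 within 99.3 kb (34528094 to 34627409, mm39). All 4 had log2 differences between -0.83 and -0.74, with a median of -0.79, and 0 were called. Ifit1 stood at 16.7, 9.33, 16.7, 6.76 and 7.46 CPM on the standard diet and at 5.38, 5.62, 11.5, 4.31 and 4.81 CPM on the Longevity diet. 4 of the 5 Longevity diet mice lay below every standard diet mouse, and LD_442 lay among the standard diet mice (11.4 ± 4.94 against 6.33 ± 2.96 CPM, log2 difference -0.83, standard error 0.34, adjusted p = 0.223).

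Ifit3 was the most abundant IFIT gene in CPM, with 19.3, 12.6, 30.8, 9.55 and 22.2 CPM on the standard diet and 15.1, 9.00, 18.5, 7.02 and 6.91 CPM on the Longevity diet. LD_405 and LD_442 lay within the standard diet range and the other 3 below it (log2 difference -0.74, adjusted p = 0.304). Ifit2 had 4 of 5 Longevity diet mice below every standard diet mouse, again with LD_442 as the exception (log2 difference -0.77, adjusted p = 0.289). Ifit3b ran from 2.01 to 3.50 CPM on the standard diet and from 0.442 CPM in LD_515 to 4.57 in LD_442 on the Longevity diet (log2 difference -0.81, adjusted p = 0.421). Ifit3 and Ifit3b are near-copies, so how reads were divided between them is uncertain.

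The OAS genes had the lowest median of the role groups on the scale used here, -1.01, with all 6 below 0 and 0 called. Their proteins make 2′-5′ oligoadenylate, the signal that turns on the RNA-cutting enzyme RNase L; of the OAS-like proteins, Oasl1 lacks that activity. Oas1a, Oas1g, Oas2 and Oas3 lie within 177 kb of chromosome 5 (120868398 to 121045584, mm39) on the minus strand. Oas3 differed by -1.11 (standard error 0.59, adjusted p = 0.352), and its Longevity diet values ran from 0.323 CPM in LD_406 to 4.87 in LD_442, a 15.1-fold range. Oas1a stood at 8.06 ± 5.22 and 3.43 ± 1.55 CPM (log2 difference -1.01, adjusted p = 0.328) and Oas2 at 5.92 ± 2.93 and 3.74 ± 3.28 CPM (-0.85, adjusted p = 0.391). Oas1g, a near-copy of Oas1a with an identical 50 bases around its first ISRE core, differed by -1.01 (adjusted p = 0.410), with the same uncertainty about shared reads.

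Oasl2 differed by -1.04 (adjusted p = 0.306), from 17.0 CPM in SD_403 down to 1.39 CPM in LD_515. Oasl1, a brake on Irf7 translation, was the tightest of the group, with 11.9, 5.87, 7.64, 7.33 and 6.29 CPM on the standard diet and 6.02, 4.12, 4.56, 4.86 and 5.77 CPM on the Longevity diet. LD_405 lay above the lowest standard diet mouse, SD_500, and the other 4 below it (7.81 ± 2.40 against 5.07 ± 0.805 CPM, log2 difference -0.58, standard error 0.24, adjusted p = 0.232). Averaged over the OAS genes as a log2 deviation from each gene's mean, the highest mice were SD_403 at 1.32, SD_501 at 0.86 and LD_442 at 0.78, and the lowest were LD_515 at -1.05, LD_406 at -0.99 and LD_513 at -0.93.

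**Figure D2:**
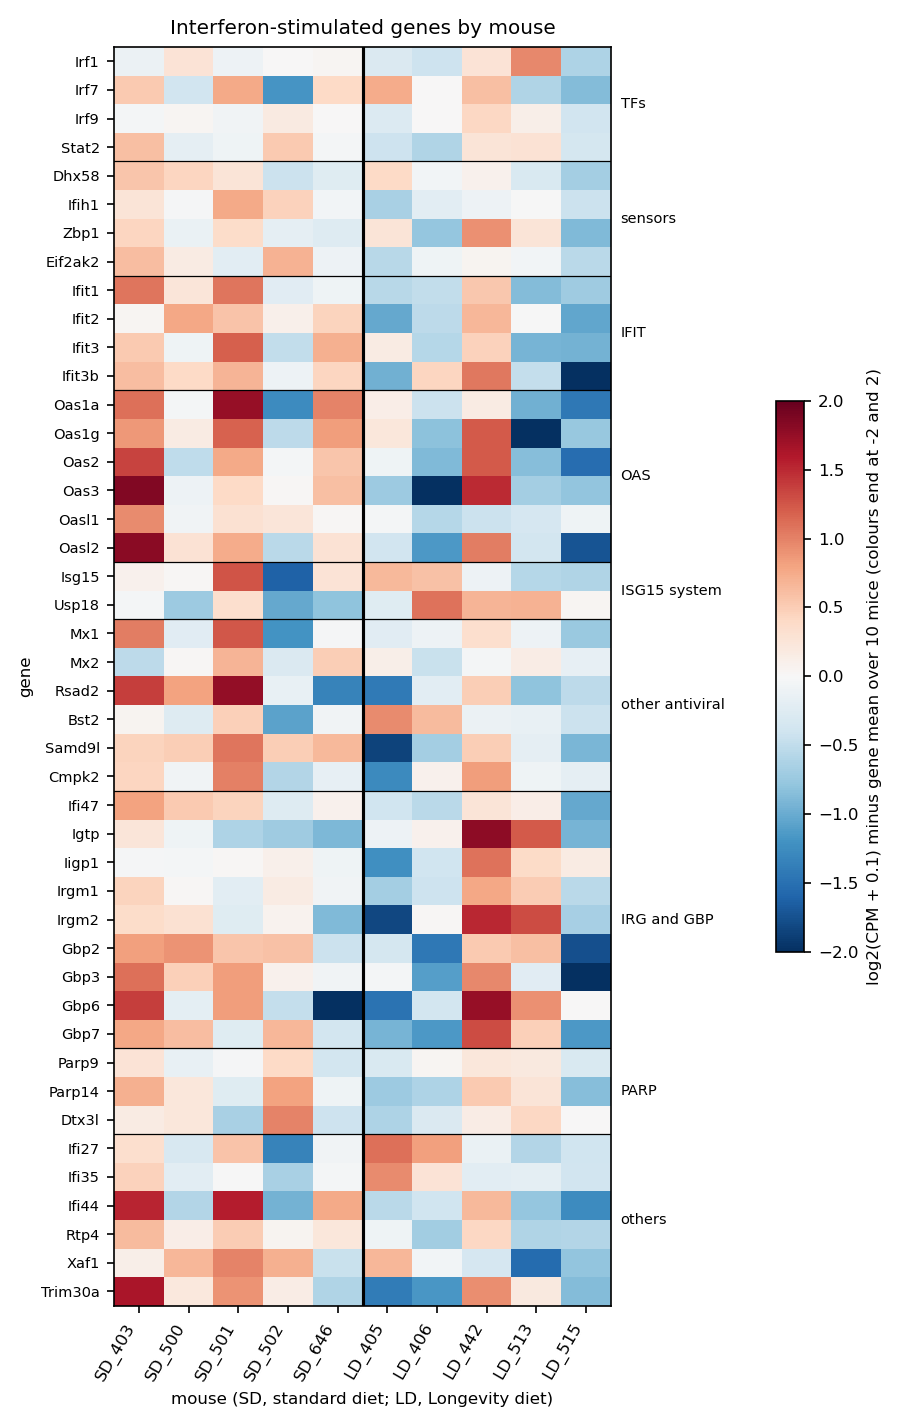
Log2 deviation of each of the 44 genes (rows, by role) from its own mean over the 10 mice (columns, by diet), in log2(CPM + 0.1), with colours ending at -2 and 2. LD_442 is the highest Longevity diet mouse in 29 rows and LD_515 the lowest in 22, while SD_403 and SD_501 are the high mice of the standard diet.

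Of the 2 genes of the ISG15 system, 1 log2 difference was below 0 and 0 were called. Isg15 is a ubiquitin-like protein that is attached to other proteins, and Usp18 is the protease that removes it and also blocks signalling at the type I receptor. Usp18 (chromosome 6, 121222865 to 121247876, mm39, plus strand) had the largest positive log2 difference of the 44. It stood at 7.14, 4.38, 9.22, 3.55 and 4.16 CPM on the standard diet and at 6.14, 15.6, 11.8, 12.0 and 7.54 CPM on the Longevity diet. LD_406, LD_442 and LD_513 were above every standard diet mouse, and LD_405 and LD_515 within their range (5.69 ± 2.41 against 10.6 ± 3.79 CPM, log2 difference 0.90, standard error 0.32, 95% interval 0.20 to 1.60, adjusted p = 0.170).

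With a weight estimated per library, Usp18 rose (log2 1.09, limma adjusted p = 0.0272), in a fit that called 2.5% of all genes higher; the other settings gave adjusted p up to 0.508. Isg15 stood at 11.4, 10.9, 25.7, 3.43 and 12.9 CPM on the standard diet and at 16.9, 16.0, 9.98, 7.15 and 7.04 CPM on the Longevity diet. SD_501 was the highest mouse and SD_502 the lowest, so the standard diet range enclosed the other (log2 difference -0.01, 95% interval -0.97 to 0.94, adjusted p = 0.991). LD_406, the highest mouse for Usp18, was the lowest or next to lowest of the Longevity diet for Oas3 and Oas1g.

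The other antiviral effectors held both the most negative difference of the 44 and some of the most abundant transcripts. Samd9l, an inhibitor of cell growth and viral translation on chromosome 6 (3372257 to 3399572, mm39, minus strand), stood at 17.0, 17.6, 26.4, 17.6 and 19.8 CPM on the standard diet and at 3.38, 7.76, 17.6, 10.97 and 6.58 CPM on the Longevity diet. The 5 standard diet mice lay close together, 4 Longevity diet mice lay below all of them, and LD_442 lay at the lower edge of their range. The means were 19.7 ± 3.89 and 9.27 ± 5.41 CPM, a log2 difference of -1.26 with a standard error of 0.35, a 95% interval of -2.02 to -0.50 and an adjusted p of 0.0910. Without LD_442 the difference was -1.54 and Samd9l fell (limma adjusted p = 0.0272).

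Bst2 encodes tetherin, which holds virions at the cell surface, and it had the highest level per kilobase of exon of the 44, at 197 CPM per kb over all mice. It measured 171, 138, 231, 78.6 and 158 CPM on the standard diet and 318, 256, 153, 149 and 123 CPM on the Longevity diet. LD_405 and LD_406 lay above every standard diet mouse and the other 3 within their range (156 ± 55.3 against 200 ± 83.2 CPM, log2 difference 0.35, adjusted p = 0.590). Rsad2, which encodes viperin, an enzyme that makes a chain-terminating nucleotide, ran from 1.59 to 14.3 CPM on the standard diet and from 1.51 to 5.93 CPM on the Longevity diet (log2 difference -0.98, adjusted p = 0.368). Its neighbour Cmpk2, a nucleotide kinase, differed by -0.25 (adjusted p = 0.779). The dynamin-like GTPases Mx1 and Mx2 differed by -0.33 and -0.15 (adjusted p = 0.757 and 0.799), and each turned slightly positive under quantile normalization (0.01 and 0.06).

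**Figure D3:**
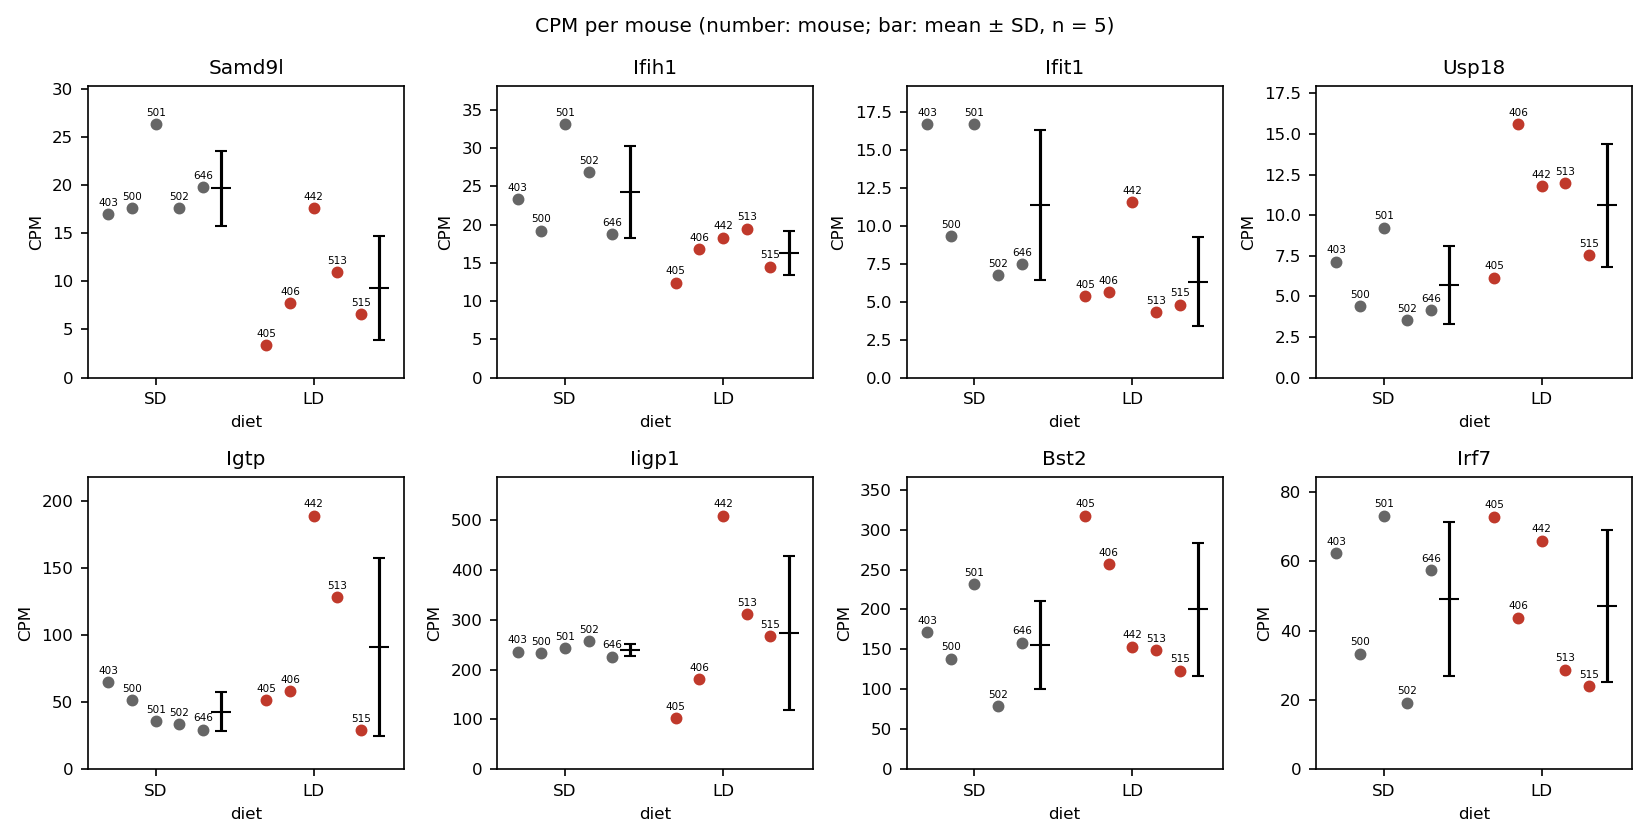
CPM of 8 single genes in every mouse (linear axes from 0), with a point labelled by number for each mouse, in columns SD for the standard diet and LD for the Longevity diet, and bars for the mean ± standard deviation. LD_442 lies with the standard diet mice for Samd9l and Ifit1 and far above them for Igtp and Iigp1, at 189 and 509 CPM.

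The immunity-related GTPases and guanylate-binding proteins, which gather on parasite-containing vacuoles and are best known as targets of type II interferon, had a median log2 difference of -0.14, with 5 of 9 below 0 and 0 called. That median was -0.35 without LD_442 and -0.23 without SD_646, with 8 of 9 below 0 each time, -0.29 without LD_513 (7 of 9), between -0.06 and -0.04 without SD_403, LD_406 or LD_515, and 0.01 without LD_405. The mice on the Longevity diet were spread more widely in them: the standard deviation of log2 values was larger on the Longevity diet for 8 of 9, beside 27 of all 44 (61.4%) and 61.2% of all genes tested. These counts are a description and were not tested. Iigp1 was the most abundant of the group in CPM. It stood at 236, 233, 242, 257 and 226 CPM on the standard diet and at 102, 180, 509, 312 and 267 CPM on the Longevity diet. Its highest value was 1.14 times its lowest on the standard diet and 5.00 times on the Longevity diet, where LD_405 and LD_406 lay below every standard diet mouse and the other 3 above (log2 difference 0.00, 95% interval -0.71 to 0.71, adjusted p = 0.999).

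Igtp measured 64.8, 51.4, 35.7, 33.4 and 29.3 CPM on the standard diet and 51.2, 58.1, 189, 128 and 28.8 CPM on the Longevity diet. LD_442 and LD_513 exceeded every standard diet mouse, and LD_515 was the lowest of all 10 (42.9 ± 14.8 against 91.1 ± 66.2 CPM, log2 difference 0.83, 95% interval -0.10 to 1.76, adjusted p = 0.345). Irgm2, a regulator of the other GTPases with the near-identical promoter stretch shown above, was likewise highest in LD_442 (109 CPM) and LD_513 (95.5 CPM) but lowest in LD_405 (10.9 CPM), with a log2 difference of 0.15 (adjusted p = 0.911). The table's models of Igtp and Irgm2 overlap by 7974 bases of chromosome 11 on the same strand, so reads may have been assigned to either. Irgm1, on the same chromosome, differed by -0.14 (adjusted p = 0.824) and was again highest in LD_442 and LD_513, at 64.0 and 53.2 CPM.

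Ifi47 was the member of this group with the smallest p. It stood at 30.9 ± 8.42 and 20.3 ± 7.05 CPM, a log2 difference of -0.63 with a standard error of 0.27 (adjusted p = 0.247). Gbp2, Gbp3 and Gbp7 lie within 108 kb of chromosome 3 (142236103 to 142343769, mm39) and differed by -0.97, -0.97 and -0.58 (adjusted p = 0.283, 0.291 and 0.538). Gbp3 ranged 8.23-fold among the Longevity diet mice, from 2.65 CPM in LD_515 to 21.8 CPM in LD_442, and 2.27-fold among the standard diet mice. Gbp6 had the widest spread on the standard diet of the 44, from 2.24 CPM in SD_646 to 31.5 in SD_403, and reached 40.6 CPM in LD_442 (log2 difference 0.33, adjusted p = 0.839). As a mean log2 deviation over the 9 genes, LD_442 stood at 1.11 and LD_513 at 0.59, the standard diet mice between -0.57 and 0.66, and LD_406, LD_405 and LD_515 at -0.59, -0.78 and -0.88.

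The PARP group consists of Parp9 and Parp14, which act on ADP-ribose marks, and Dtx3l, the ubiquitin ligase that pairs with Parp9. Dtx3l was the most abundant in CPM, with 33.9, 35.4, 19.2, 60.4 and 22.7 CPM on the standard diet and 19.7, 24.7, 33.4, 40.5 and 30.2 CPM on the Longevity diet. All 5 Longevity diet mice lay inside the standard diet range, whose top was SD_502 (log2 difference -0.13, adjusted p = 0.844). Parp9, which overlaps Dtx3l by 682 bases on the opposite strand, differed by -0.06 (adjusted p = 0.905). The strandedness of the libraries is not given, so reads from that overlap cannot be assigned with certainty. Parp14 differed by -0.56 (adjusted p = 0.368).

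Of the other 6 genes, 4 had log2 differences between -0.93 and -0.62. Rtp4, a chaperone that inhibits flaviviruses, had 23.6, 16.7, 21.6, 15.8 and 17.7 CPM on the standard diet and 14.2, 9.38, 20.2, 9.93 and 10.1 CPM on the Longevity diet. LD_442 alone lay among the standard diet mice, and the other 4 lay below all of them (19.1 ± 3.35 against 12.8 ± 4.58 CPM, log2 difference -0.62, standard error 0.24, adjusted p = 0.192). Xaf1, which promotes apoptosis, differed by -0.82 (adjusted p = 0.291), and with a weight per library it fell (log2 -1.16, limma adjusted p = 0.0440, 3.62% of all genes called lower). Ifi44 and the ubiquitin ligase gene Trim30a differed by -0.93 and -0.92 (adjusted p = 0.368 and 0.356).

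Ifi27, a mitochondrial and nuclear membrane protein, and Ifi35 were the exceptions in this group. Ifi27 stood at 176, 112, 207, 55.4 and 133 CPM on the standard diet and at 298, 247, 128, 93.3 and 105 CPM on the Longevity diet. As for Bst2, LD_405 and LD_406 lay above every standard diet mouse and the other 3 within their range (log2 difference 0.32, adjusted p = 0.698). Ifi35, which binds the partner protein Nmi, was highest in LD_405 at 48.1 CPM (log2 difference 0.17, adjusted p = 0.774). Per kilobase of exon, Ifi27 followed Bst2 at 106 CPM per kb, then Iigp1 at 44.0, Igtp at 33.1, Isg15 at 16.1 and Ifi35 at 15.1, and the lowest levels were those of Mx1 at 0.366 and Oas3 at 0.319.

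**Figure D4:**
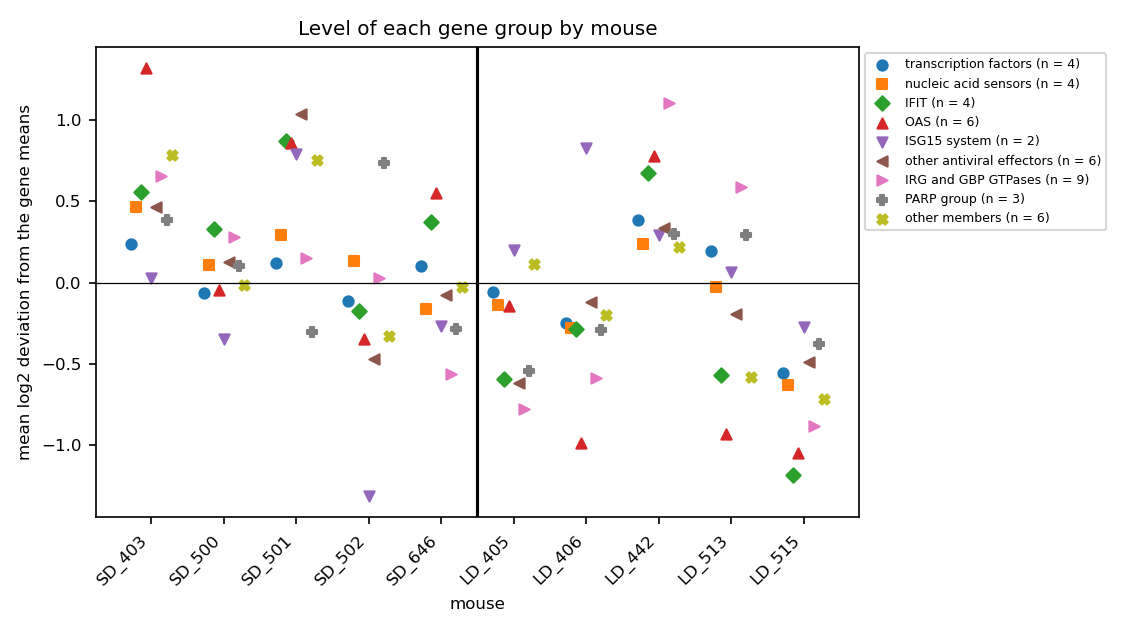
Mean log2 deviation of each role group (symbols) from the gene means, on the y axis, for each mouse on the x axis, with a line between the diets. The OAS points of LD_442 (0.78), SD_403 (1.32) and SD_501 (0.86) are high and those of LD_406, LD_513 and LD_515 low, and for the GTPases LD_442 (1.11) and LD_513 (0.59) separate from LD_405, LD_406 and LD_515.

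Single mice were high or low for many of the genes at once. LD_442 was the highest Longevity diet mouse for 29 of the 44 (65.9%, beside 23.8% of all genes tested) and the lowest for 0. LD_515 was the lowest Longevity diet mouse for 22 (50%, beside 20.8%) and the highest for 0. On the standard diet SD_501 was highest for 18 (40.9%, beside 18.9%) and SD_403 for 17 (38.6%, beside 24.1%), while SD_502 was lowest for 18 (40.9%, beside 21.1%). For Ifit1, Ifit2, Oas3, Rtp4 and Samd9l, LD_442 was the only Longevity diet mouse not below every standard diet mouse. These are the 5 genes counted above as not overlapping without LD_442 (11.4%, beside 5.63% of all genes).

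A different order was seen in the genes that LD_405 led. Bst2, Ifi27 and Ifi35 were highest in LD_405 of all 10 mice. Isg15, Irf7, Oasl1, Dhx58 and Xaf1 were highest there among the Longevity diet mice. Together these are 8 of the 44 (18.2%, beside 22.7% of all genes tested). LD_405 was the lowest Longevity diet mouse for 13 (29.5%, beside 47.8%). Markers of other cell types also differed between these mice. Summed Kupffer cell and macrophage markers were 1013 CPM in LD_442 and 904 in LD_405, 476 in LD_513, 324 in LD_515 and 314 in LD_406; on the standard diet they were highest in SD_501 (1148) and SD_403 (1002) and lowest in SD_502 (564). T and NK cell markers summed to 30.3 CPM in LD_442, 20.2 in LD_405, 20.1 in LD_513, 4.85 in LD_406 and 4.00 in LD_515. On the standard diet they summed to 26.9 CPM in SD_500, 25.6 in SD_501, 12.8 in SD_403, 11.2 in SD_646 and 8.54 in SD_502. Of those 12 markers, 5 were at 0 in at least 1 mouse. Summed endothelial markers had another order on the standard diet, highest in SD_502 (327 CPM) and lowest in SD_403 (235). On the Longevity diet they were highest in LD_405 (206) and LD_442 (191) and lowest in LD_515 (98.8). The part of these cell types in the levels of the 44 genes was not tested. Without LD_406 and LD_515 together, a setting chosen after seeing the data, the median log2 difference of the 44 was -0.24, beside -0.11 for all genes, and 2 genes (4.55%) had an unadjusted p under 0.05, beside 9.93% of all genes.

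Genes with a GAS core in the promoter window had a median log2 difference of -0.04, with 5 of 9 below 0. The 23 with a window but no GAS core had a median of -0.81, and all 23 were below 0. With an ISRE core the median was -0.74 (16 of 19 below 0), and without one -0.58 (12 of 13). The GAS set holds 4 of the 8 positive differences (Bst2, Igtp, Irgm2 and Ifi35). The other 4, those of Usp18, Gbp6, Ifi27 and Iigp1, belong to the 12 genes without a window, so these counts depend on which windows were at hand. Isg15, Irf7 and Irf9, without a GAS core, were near 0 and turned positive under median-of-ratios scaling. Irgm1, Cmpk2 and Dtx3l, also without a GAS core, turned positive in 3, 3 and 2 settings (up to 0.13, 0.039 and 0.098). Irgm2 and Ifi35, with a GAS core, each turned negative in 3 settings (down to -0.21 and -0.088). Igtp and Irgm2 may also share reads, as described above. The split by core is a description and was not tested.

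The signalling genes upstream of the 44 were read from lists of their own. For comparison with each list, 60.4% of all genes tested were below 0, with a median of -0.11, and 1.23% were called lower. Of the receptor and kinase genes, 8 of 9 were tested, 0 were called and all 8 were below 0, with a median of -0.35. Jak2, a kinase of the type II receptor, differed by -0.61 (13.3 ± 1.41 against 9.01 ± 2.58 CPM, adjusted p = 0.207). All Longevity diet mice lay below the standard diet mice for Jak2, as they did for 3.49% of all genes tested. Ifnar1, a chain of the type I receptor, differed by -0.42 (adjusted p = 0.216). Of 6 STAT and IRF genes outside the 44, 0 rose and 1 fell. That gene was Irf5, which carries Toll-like receptor signals to cytokine genes in macrophages and B cells.

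Irf5 stood at 15.5, 14.8, 9.72, 17.7 and 7.44 CPM on the standard diet and at 5.25, 2.87, 4.64, 6.17 and 2.31 CPM on the Longevity diet. The groups did not overlap (13.0 ± 4.29 against 4.25 ± 1.62 CPM, log2 difference -1.62, standard error 0.32, limma adjusted p = 0.0259). Irf5 lost its call without SD_403 (adjusted p = 0.0766), SD_500 (0.0696), LD_406 (0.0791) or LD_515 (0.0667), and without LD_406 and LD_515 together it differed by -1.21 (adjusted p = 0.221). Irf8, needed for macrophage and dendritic cell development, differed by -0.62 (adjusted p = 0.392).

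Among 7 negative regulators of the pathway 0 were called, the median was -0.10 and 4 were below 0; Pias1, a SUMO ligase that restrains the pathway, differed by -0.53 (adjusted p = 0.319) and the phosphatase gene Ptpn6 by -0.33 (adjusted p = 0.400). Of 13 sensing and adaptor genes 11 were tested, 0 were called and 9 were below 0, with a median of -0.28. Traf3, an adaptor between sensors and interferon induction, differed by -1.15 (adjusted p = 0.136). It fell without LD_513 (log2 -1.46, limma adjusted p = 0.0413), in a fit that called 1.36% of all genes. Tlr3, the endosomal sensor of double-stranded RNA, differed by -0.90 (adjusted p = 0.161). A further list of 62 interferon-inducible genes outside the 44 gave 58 tested, 0 called, 49 below 0 and a median of -0.50, close to the -0.51 of the 44. Slfn8 and Slfn5, of the Schlafen family, had its smallest p, with log2 differences of -1.35 and -0.73 (adjusted p = 0.147 and 0.223). The interferon genes themselves were not analysed here.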

How the data were processed

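Libraries were made from poly-A selected liver RNA, per the labels' protocols, and STAR, Partek and the mm39 genome are named without versions per the submitters' processing notes; the counting step and annotation release are not given in the sources used here. The values the authors deposited are CPM, each column summing to 1000000 before the 0.0001 that had been added to every value, which was subtracted. Depth was estimated from the step between low values. Between 84.5% and 87.9% of low values lay within 0.1 of a whole read, so no count test was run; the floor of 3 reads covers counting error only, and confidence intervals are those of limma over mice. Gene ends were taken as 1 below the deposited stop.

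The 13157 genes averaging 1 CPM or more were compared between the diets on log2(CPM + 0.1) with limma 3.58.1 (trend and robust, statmod 1.5.0, R 4.3.3), two-sided, with Benjamini-Hochberg adjustment over all of them at 0.05, a procedure tested on simulated data. "Rose" and "fell" mark genes past that threshold. The 44 genes, the role groups and the other lists were chosen with earlier results of these data known, so no test of a list is given. Values in every mouse are given for the 4 genes with the smallest p in each direction and the most abundant of each role group; others named with single values were chosen after their values were seen. From each list of other genes, the 2 with the smallest p and any called gene are named; 1 gene that the rule also names is not reported here. Exon lengths came from GENCODE M21 (GRCm38) and promoter windows from RefSeq (GRCm38.p6). Alternatives were other pseudocounts, filters and scalings, library weights, a covariate for the first digit of the mouse number (4 or not), plain variance moderation and leaving out mice.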

Additional observations from a re-analysis of the deposited data

Results flagged for a closer look

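Each gene's 5 values per diet were checked for a mouse far from the others, by the gap to its nearest neighbour over the whole range of log2 values. Of 88 such groups, 2 exceeded the critical value of 0.71, where chance alone marks about 1 in 20 groups. Ifit1 measured 11.5 CPM in LD_442 and 4.31 to 5.62 CPM in the other Longevity diet mice (gap over range 0.732). Gbp2 measured 8.28 CPM in SD_646 and 16.5 to 21.0 CPM in the other standard diet mice (gap over range 0.737).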

How the results depend on the processing

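Up to 20 alternative settings were run for each gene. 28 of the 44 genes kept the sign of their log2 difference in every setting run and 16 changed it in at least 1. The number of genes called was 0 in each direction except with weights per library (1 higher, 1 lower) and without LD_442, so that leaving out single mice gave 0 higher each time and 0 to 1 lower. Genes whose diet groups did not overlap numbered 1 under median-of-ratios scaling and 1 under quantile normalization, both Ifih1 (2.27%, beside 2.71% of all genes lower without overlap), and 0 to 5 when single mice were left out: 5 without LD_442 (11.4%, beside 5.63%) and 1 each without SD_500, LD_405 or LD_513. Of 20 settings, S100a8 lost its call in 17 and Pdgfrb in 7. The median log2 difference of the 44 lay between -0.59 and -0.38 on leaving out single mice. Median-of-ratios scaling and quantile normalization moved the median of all genes by 0.10 and 0.11; relative to it the median of the 44 was -0.40 as deposited, -0.40 and -0.34. These scalings also moved the split of all calls from 87 higher and 162 lower to 151 and 138, and 148 and 149.

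Signs changed for genes with log2 differences between -0.33 and 0.33. Under median-of-ratios scaling the log2 difference was 0.089 for Isg15, 0.064 for Irf1, 0.061 for Irf7, 0.062 for Irf9, 0.011 for Zbp1 and 0.045 for Parp9. Under quantile normalization it was 0.086 for Isg15, 0.014 for Mx1, 0.059 for Mx2, 0.00243 for Irf1, -0.023 for Iigp1, 0.028 for Zbp1 and 0.012 for Cmpk2. With weights per library it was 0.026 for Irf9, -0.016 for Ifi35, 0.050 for Irgm1, 0.076 for Parp9 and 0.037 for Cmpk2. With the leading digit of the mouse number as a covariate it was 0.063 for Irf1, -0.037 for Ifi27 and -0.088 for Ifi35. Without LD_406 and LD_515 it was 0.29 for Irf1, 0.23 for Irf7, 0.068 for Irf9, 0.13 for Irgm1, 0.43 for Zbp1 and 0.011 for Parp9. Leaving out single mice gave -0.42 to 0.30 for Isg15, -0.28 to 0.11 for Irf1, -0.34 to 0.17 for Irf7, -0.15 to 0.049 for Irf9, -0.042 to 0.31 for Ifi35, -0.27 to 0.31 for Iigp1, -0.35 to 0.0098 for Irgm1, -0.21 to 0.62 for Irgm2, -0.23 to 0.74 for Gbp6, -0.33 to 0.12 for Zbp1, -0.16 to 0.035 for Parp9, -0.31 to 0.098 for Dtx3l and -0.49 to 0.039 for Cmpk2. The causes were not tested. With the covariate for the leading digit, Irf5 was not called (adjusted p = 0.0512). No paired analysis was possible because no mouse number occurs on both diets.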
